A study of Mus musculus with 2 samples.

Results

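The 8 genes described here are Neurog2, Olig2, Atoh7 and Neurod4, which encode proneural or related basic helix-loop-helix (bHLH) transcription factors, and Gadd45a, Gadd45g, Btg1 and Btg2, which encode small proteins that slow or end the cell cycle. They were taken by symbol from the 32285 genes of the series, and all 8 were present with UMIs in both libraries. The series profiled dissociated mouse retina at postnatal day 7 (P7) by droplet single-cell RNA sequencing of 3' ends. One library came from Mettl14-cKO retinas, which carried 2 floxed alleles of Mettl14 together with a transgene for EGFP and Cre, and 1 library came from control retinas labelled Mettl14 fl/fl or fl/wt. Mettl14 is a subunit of the methyltransferase that places N6-methyladenosine on messenger RNA. The transgene expresses Cre recombinase in retinal progenitors and is known for mosaic recombination. The labels give neither the sex nor the number of animals in a library, and they do not say which control animals carried 1 or 2 floxed alleles.

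Retinal neurons arise from progenitors in which pulses of proneural bHLH factors drive the Notch ligand Dll1 and push cells out of the cycle. At P7 neurogenesis in the mouse retina is close to its end, so that progenitor-stage factors are found in few cells. Neurog2 is a proneural factor of dividing progenitors, Olig2 marks a late progenitor that divides to give neurons, Atoh7 is required for retinal ganglion cells and is transient in other early neurons, and Neurod4 is kept for longer in young neurons and bipolar cells. Gadd45a and Gadd45g bind cyclin-dependent kinase 1 and stress kinases, and Btg1 and Btg2 are antiproliferative partners of the mRNA deadenylase.

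The upstream sequences of 3 of the genes are shown because they differ in the E-box, the bHLH binding motif CANNTG, which reads the same class of hexamer on both strands. The 250 bases before the RefSeq start (GRCm38) of Atoh7 and of Gadd45g held 3 E-boxes each, and those of Gadd45a held 1. The matching windows of Neurog2, Olig2, Neurod4, Btg1 and Btg2 held none. Over 32851 promoter windows of the same length, 66.2% held at least 1 E-box and 12.2% held 3 or more. The Atoh7 stretch (chr10:63099535-63099650, plus strand), the Gadd45g stretch (chr13:51846425-51846674, plus strand) and the Gadd45a stretch (chr6:67037458-67037657, minus strand) end before the first annotated start, and the last 2 E-boxes of Atoh7 lie in a site downstream of it (chr10:63099711-63099740). Capitals mark E-boxes.
Atoh7 upstream: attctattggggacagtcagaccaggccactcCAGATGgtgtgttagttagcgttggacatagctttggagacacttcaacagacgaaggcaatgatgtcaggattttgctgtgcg
Atoh7 site: gcccgccCACCTGccacCACCTGttccctc
Gadd45g upstream: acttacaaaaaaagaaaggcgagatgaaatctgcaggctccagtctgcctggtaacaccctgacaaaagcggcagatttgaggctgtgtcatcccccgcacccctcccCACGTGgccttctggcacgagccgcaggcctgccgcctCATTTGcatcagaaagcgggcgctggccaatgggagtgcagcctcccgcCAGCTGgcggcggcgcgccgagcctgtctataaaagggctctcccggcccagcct
Gadd45a upstream: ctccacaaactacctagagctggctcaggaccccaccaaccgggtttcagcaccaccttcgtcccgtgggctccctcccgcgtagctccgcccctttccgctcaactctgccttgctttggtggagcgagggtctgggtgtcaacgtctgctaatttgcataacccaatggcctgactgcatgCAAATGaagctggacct
A match of letters describes the sequence and is not a measured binding site.

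The values below rest on the 13502 Mettl14-cKO and 11426 control barcodes with at least 1000 unique molecular identifiers (UMIs), which held 58511730 and 54544552 UMIs. Median depth was 3212 UMIs per Mettl14-cKO cell and 3487 per control cell, so shares of cells were compared after each cell had been thinned to 1000 UMIs. Mettl14 stood at 14.5 UMIs per 1000000 (CPM) in the Mettl14-cKO library and 27.1 CPM in the control library, a ratio of 0.534, in the direction of the labels. The libraries shared 39 cell barcodes. The 5 proliferation genes examined were all higher in the Mettl14-cKO library, Mki67 at 20.1 against 5.08 CPM. Each genotype had 1 library, so no test was made; the intervals given are exact 95% intervals that cover counting error only, and a gene is called higher or lower when its ratio reached 1.5-fold. Of 16164 genes with at least 30 UMIs over both libraries, 13.9% were 1.5-fold higher and 11.6% were 1.5-fold lower in the Mettl14-cKO library.

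Over all barcodes, 5 of the 8 genes were higher in the Mettl14-cKO library, 1 was lower and 2 stayed within 1.5-fold. These sums hold all cell types, so more cells of a type and more RNA per cell cannot be told apart in them. All 4 bHLH genes were among the higher ones, against the 13.9% of all genes. Atoh7 (chromosome 10, 63099651 to 63101279, plus strand; all positions are GRCm38 gene bounds) had 415 UMIs (7.09 CPM, 6.43 to 7.81) in Mettl14-cKO retina, against 96 UMIs (1.76 CPM, 1.43 to 2.15) in control retina, a ratio of 4.03 (3.22 to 5.09). Olig2 (chromosome 16, 91225457 to 91228677, plus strand) had 117 UMIs (1.65 to 2.40 CPM) in Mettl14-cKO and 56 UMIs (0.776 to 1.33 CPM) in control retina, a ratio of 1.95 (1.40 to 2.73). Neurog2 (chromosome 3, 127633135 to 127635631, plus strand) had 726 UMIs (12.4 CPM) in Mettl14-cKO and 392 UMIs (7.19 CPM) in control retina, a ratio of 1.73 (1.52 to 1.96). All 3 were rare transcripts, each higher in Mettl14-cKO retina. Their intervals did not overlap between the libraries, but neither did those of Btg2, at a ratio of 1.04. The share of all genes with such intervals was not counted. Neurod4 (chromosome 10, 130268152 to 130280240, minus strand), with 23497 UMIs (402 CPM) in Mettl14-cKO and 13351 UMIs (245 CPM) in control retina, differed by a ratio of 1.64.

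The 4 exit genes did not move together. Gadd45g (chromosome 13, 51846678 to 51848468, plus strand) had 6516 UMIs (111 CPM) in the Mettl14-cKO library and 2916 UMIs (53.5 CPM) in the control library, a ratio of 2.08. Gadd45a (chromosome 6, 67035096 to 67037457, minus strand) went the other way, with 1832 UMIs (31.3 CPM) in Mettl14-cKO and 2619 UMIs (48.0 CPM) in control retina, a ratio of 0.652 (0.614 to 0.692). It is the 1 gene of the 8 that was lower, against 11.6% of all genes, and it was near the limit: with a minimum of 2000 UMIs per barcode its log2 ratio was -0.55, and with control class shares, described below, it was -0.42, neither past 1.5-fold. Btg1 (chromosome 10, 96617006 to 96622809, plus strand) had 205 CPM in Mettl14-cKO against 164 CPM in control retina, a log2 ratio of 0.32. Btg2 (chromosome 1, 134075170 to 134079120, minus strand) had 330 CPM in Mettl14-cKO against 317 CPM in control, a ratio of 1.04. The transcript E230016M11Rik overlaps Gadd45a on the opposite strand; the 3' kit keeps strand, but the counting setting is not given in the sources used here.

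**Figure D1:**
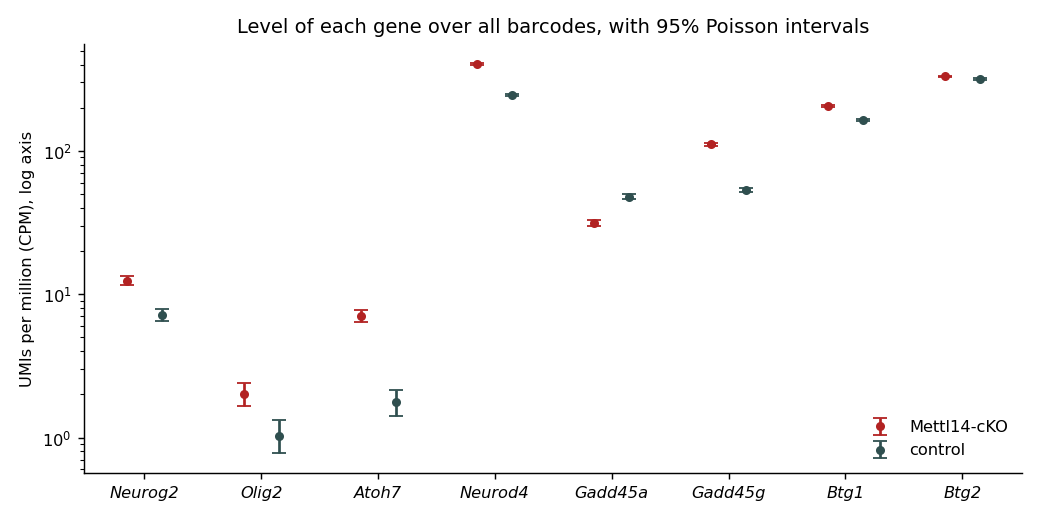
Level of each gene over all barcodes with at least 1000 UMIs, in CPM on a log axis, in the Mettl14-cKO library (red, left of each pair) and the control library (dark, right); bars are 95% Poisson intervals, hidden by the point where narrow. The red point is above the dark one for every gene except Gadd45a, and the widest gap is that of Atoh7 (7.09 against 1.76 CPM).

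Shares of cells with a UMI differed in the same directions, except that of Btg2. After thinning, 0.518% of Mettl14-cKO cells and 0.140% of control cells held an Atoh7 UMI, and 0.200% against 0.123% held an Olig2 UMI. For Neurog2 the thinned shares were 1.04% (0.873% to 1.22%) in Mettl14-cKO and 0.674% (0.532% to 0.842%) in control cells. The Olig2 intervals, 0.132% to 0.291% and 0.0670% to 0.205%, overlapped. Those of Neurog2 and Atoh7 did not, and how many of all genes share this was not counted. Neurod4 was found in 24.1% of Mettl14-cKO and 18.6% of control cells, Gadd45g in 8.32% and 4.69%, Btg1 in 19.4% and 16.0%, and Gadd45a in 3.18% and 4.98%. Btg2 was found in 24.7% of Mettl14-cKO and 24.8% of control cells. Microglia-like cells (108 Mettl14-cKO and 50 control cells, median depth 5846 and 4248 UMIs, defined below) held a thinned UMI of Neurod4 in 12 and 4 cells, of Gadd45g in 6 and 1, of Atoh7 and of Olig2 in 1 and 0 each, and of Neurog2 in 0 of either. At full depth the shares were 2.01% against 0.788% for Atoh7, 3.06% against 2.10% for Neurog2 and 0.704% against 0.368% for Olig2. At least 1 of these 3 progenitor-stage genes was found in 1.71% of Mettl14-cKO and 0.893% of control cells after thinning.

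To separate the size of a cell class from the level within it, 12908 Mettl14-cKO and 10580 control cells were clustered with the 8 genes left out of the variable genes, and clusters were named from marker genes. The cluster called neurogenic-like is led by Mybl1, Vxn and Rgs13, with Dll1 among its top 10 genes, and held 687 Mettl14-cKO cells (5.32%) and 232 control cells (2.19%). This share depends on genes such as Dll1 that themselves differed between the libraries (Dll1 at 12.9 against 7.39 CPM), so it describes the clustering. Several classes were carried by different clusters in the libraries: rod-like cells mostly by cluster 0 in Mettl14-cKO (1997 of 2184) and by clusters 1 and 4 in control (1893 and 1119 of 3080), bipolar-like cells more by clusters 7 and 12 in Mettl14-cKO (849 and 686 of 2500) and by clusters 9 and 16 in control (629 and 565 of 2035), and Müller glia-like cells by cluster 2 in Mettl14-cKO (1669 of 1690) and cluster 13 in control (855 of 1043). Cluster 15, led by Slitrk6, Mmp2 and Gsg1 and left unnamed, held 702 Mettl14-cKO but 50 control cells. A proliferating progenitor-like cluster of 213 Mettl14-cKO and 39 control cells was too small in control for comparison.

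With the control class shares applied to both libraries, the differences of Neurog2 and Olig2 were no longer past 1.5-fold and that of Atoh7 was. The log2 ratio of Neurog2 over clustered cells was 0.82 as measured, 0.16 with control class shares and 0.65 when class shares alone were allowed to differ. For Olig2 the log2 ratio was -0.18 with control class shares and 1.33 from class shares alone. For Atoh7 it was 2.07 as measured, 1.72 with control class shares and 0.24 from class shares alone, with the 1 cell of 49 Atoh7 UMIs described below included. Gadd45g was divided between both parts, with 1.08 as measured, 0.50 from levels and 0.74 from class shares, and so was Neurod4 with 0.74, 0.44 and 0.36. Gadd45a had -0.62 as measured, -0.42 from levels and -0.31 from class shares. Btg1 had 0.32 as measured and 0.36 from levels, and Btg2 had 0.06, 0.08 and 0.11.

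**Figure D2:**
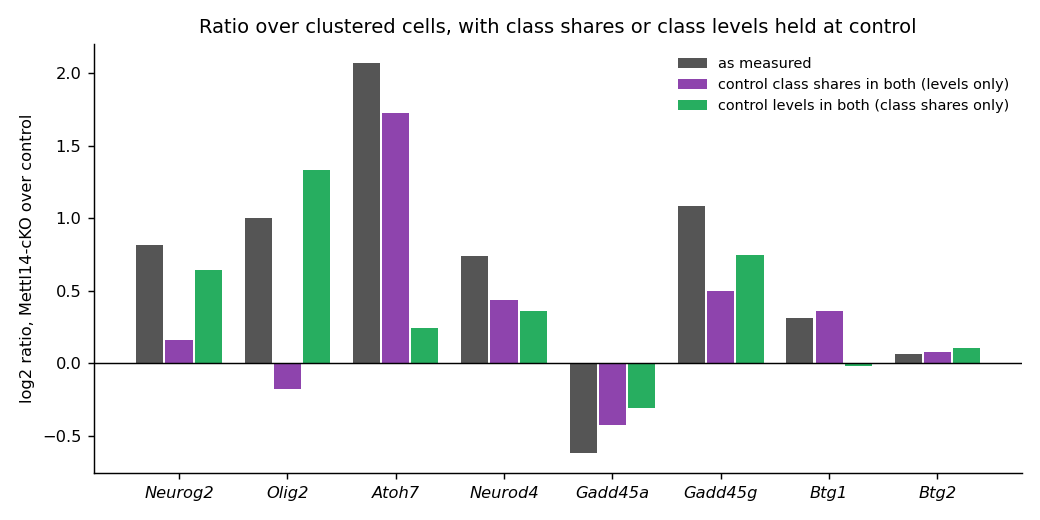
Log2 ratio of each gene, Mettl14-cKO over control, over clustered cells (grey), with control class shares in both libraries so that only levels differ (purple), and with control levels in both so that only class shares differ (green). Atoh7 keeps 1.72 of its 2.07 through levels, whereas Olig2 falls to -0.18.

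Within the neurogenic-like cells the bHLH genes parted. Neurog2 had 241 UMIs (94.9 CPM) in Mettl14-cKO against 102 UMIs (125 CPM) in control cells, a ratio of 0.759 (0.599 to 0.966). Olig2 had 59 UMIs (23.2 CPM) in Mettl14-cKO against 37 UMIs (45.4 CPM) in control cells, a ratio of 0.512 (0.334 to 0.795), so this gene was lower within the class although higher over the library. Atoh7 had 93 UMIs (36.6 CPM) against 7 UMIs (8.59 CPM), a ratio of 4.27 (1.99 to 10.9). Neurod4 stood at 1614 CPM in Mettl14-cKO and 1310 CPM in control cells, a ratio of 1.23. Among the exit genes Gadd45g had 901 against 1037 CPM, Btg2 800 against 1138 CPM, Btg1 308 against 282 CPM and Gadd45a 46.5 against 44.2 CPM. Thus 1 of the 8 genes was higher and 1 lower in this class, against 15.4% and 11.9% of the 8761 genes measured there.

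Other genes of the same kinds also differed within this class, where 15.4% of all measured genes were higher and 11.9% lower. Of 6 measured other retinal bHLH factors, 0 were higher and 4 lower, with Neurod1 at 626 against 983 CPM. Of 14 other cell cycle exit genes 2 were higher and 5 lower: the kinase inhibitor Cdkn1a had 307 UMIs in Mettl14-cKO cells and 2 UMIs in control cells, and the inhibitor Cdkn1c stood at 125 against 297 CPM. Of 15 neurogenic state genes 3 were higher and 2 lower, with Dll3 at 54.0 against 125 CPM and Sox11 at 107 against 49.1 CPM. Both Rlbp1 and Slc1a3, the glial genes of the gate used below, were lower, Rlbp1 at 24.8 against 82.2 CPM. Of 9 fate genes 2 were higher and 1 lower, with Isl1 at 175 against 266 CPM. Of 12 p53 target genes 6 were higher and 0 lower, Cdkn1a among them. Of 9 immediate early genes, a set that dissociation can induce, 0 were higher and 5 lower, with Egr1 at 65.4 against 318 CPM. Btg2 is itself an early response gene, and the part of dissociation in its values was not tested.

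**Figure D3:**
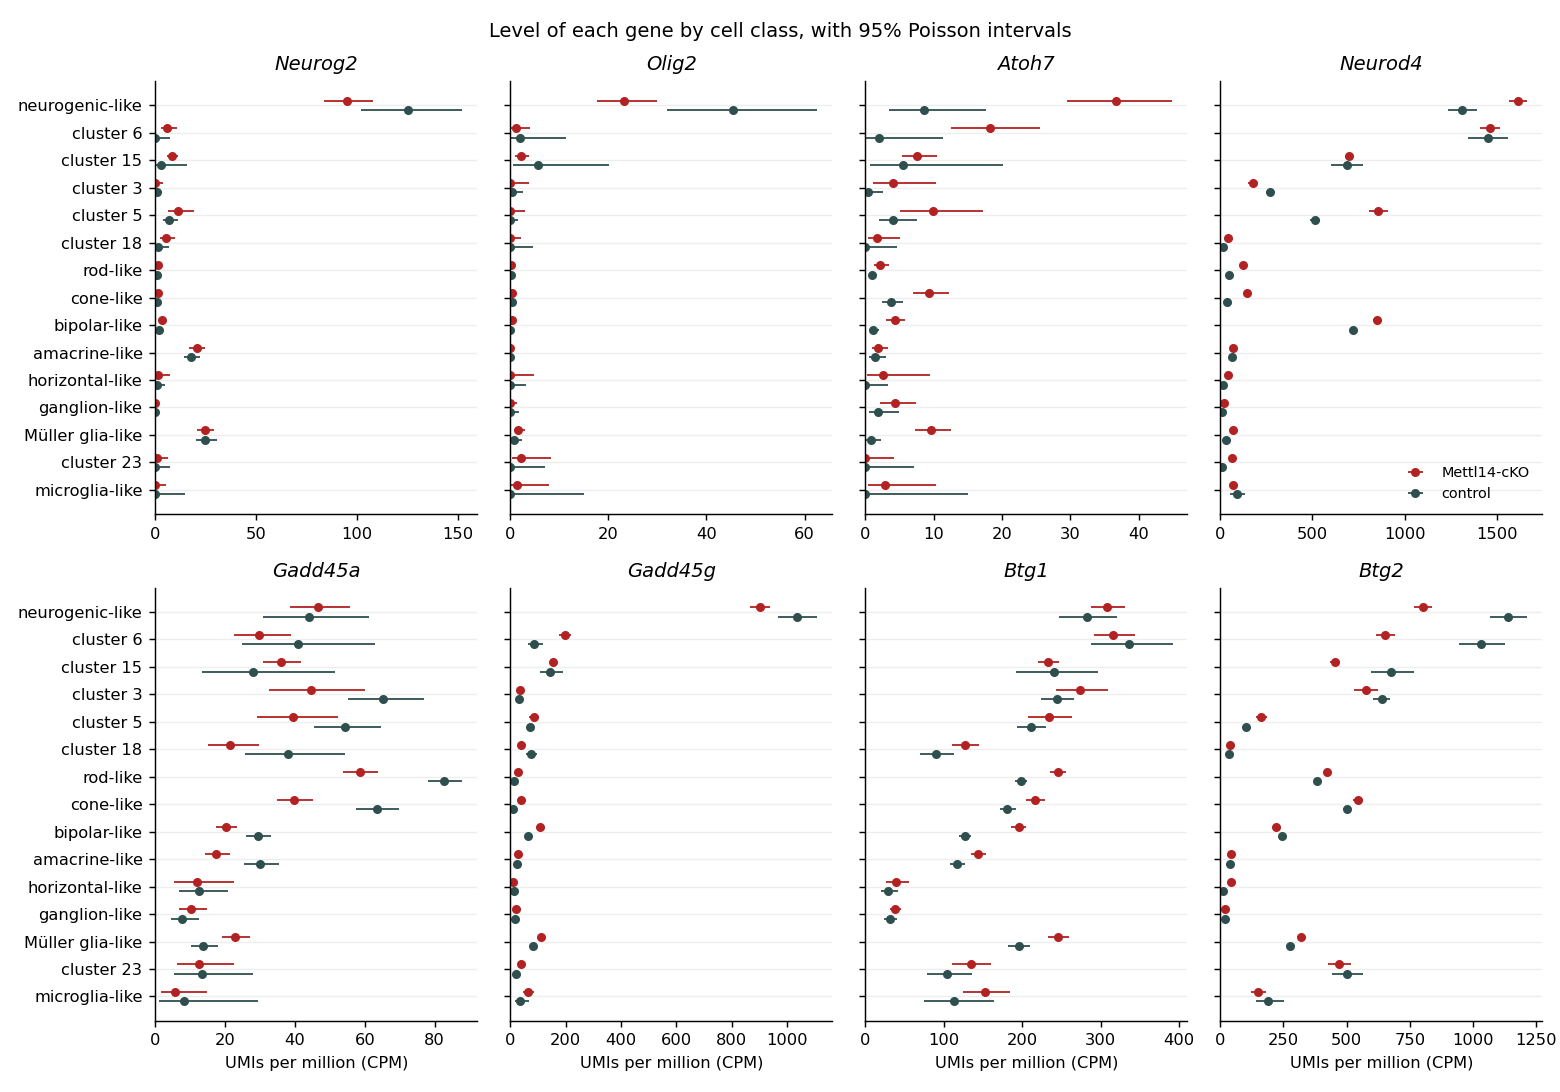
Level of each gene in CPM in the 15 classes with at least 50 cells in each library, Mettl14-cKO (red, upper of each pair) and control (dark, lower), with 95% Poisson intervals; each panel has its own axis. Olig2 is near 0 outside neurogenic-like cells, Neurog2 has smaller peaks in Müller glia-like and amacrine-like cells, and Atoh7 is higher in red in neurogenic-like cells and cluster 6; its red point in Müller glia-like cells rests on 1 cell.

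Neurog2 was found mostly in 3 classes. The neurogenic-like cells held 35.0% of its UMIs in Mettl14-cKO and 29.2% in control, the Müller glia-like cells 20.6% and 26.9%, and the amacrine-like cells 17.3% and 24.1%. Within Müller glia-like cells the level was 24.9 CPM in both libraries, and within amacrine-like cells it was 20.5 CPM in Mettl14-cKO and 17.8 CPM in control, a ratio of 1.15 (0.863 to 1.54). Ganglion-like cells (299 Mettl14-cKO and 170 control cells, median depth 6065 and 12024.5 UMIs) and microglia-like cells held 0 UMIs of Neurog2 in either library. For ganglion-like cells that count allows up to 1.32 CPM in Mettl14-cKO and 1.78 CPM in control, far under the levels above. Of the 6 classes with enough UMIs for a ratio, 3 were past 1.5-fold higher, and in all of those the interval included 1.

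Most of the amacrine-like Neurog2 UMIs came from 1 small cluster, with 76 of 119 in Mettl14-cKO and 66 of 84 in control. This cluster 25, with 99 Mettl14-cKO and 86 control cells, has Slc18a3, Slc5a7 and Chat among its top 10 genes, acetylcholine genes that mark starburst amacrine cells. There Neurog2 stood at 167 CPM (131 to 209) in Mettl14-cKO and 123 CPM (94.8 to 156) in control, the first by an interval above the neurogenic-like class (83.3 to 108 CPM) and the second overlapping it (102 to 152 CPM). After thinning, 11.1% (5.68% to 19.0%) of Mettl14-cKO and 10.5% (4.90% to 18.9%) of control cells of this cluster held a UMI, against 7.28% and 9.48% of neurogenic-like cells. In amacrine-like clusters 14 and 19 the shares were 0.649% and 0.244% in Mettl14-cKO and 0.635% and 0 of 156 cells in control. At full depth 32 of 99 Mettl14-cKO and 37 of 86 control cells of cluster 25 held Neurog2.

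What else these Neurog2 cells held differed between clusters. In cluster 25, Dll1 was found in 0 of 32 Mettl14-cKO and 2 of 37 control cells with Neurog2, Gadd45g in 2 and 4, and Olig2 in 0 of either. Isl1, a starburst amacrine factor among other roles, was found in all 32 Mettl14-cKO cells and in 36 of the 37 control cells. In neurogenic-like cells with Neurog2, Dll1 was found in 51 of 128 Mettl14-cKO and 23 of 48 control cells, and Gadd45g in 116 and 45. Gadd45g was common in the whole class, in 593 of 687 Mettl14-cKO and 201 of 232 control cells. Its counts are thus not read as a trait of Neurog2 cells. Shares without Neurog2 are not given here for Dll1 in this class or for Isl1 in cluster 25. In the main Müller glia-like cluster of each library, Neurog2 cells held Dll1 in 32 of 73 cells in Mettl14-cKO (cluster 2) and in 16 of 50 in control (cluster 13), while cells without Neurog2 held it in 8.96% and 4.10%. Gadd45g was found in 42 of those 73 Mettl14-cKO cells and 27 of those 50 control cells, against 13.5% and 12.5% of the cells without Neurog2.

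**Figure D4:**
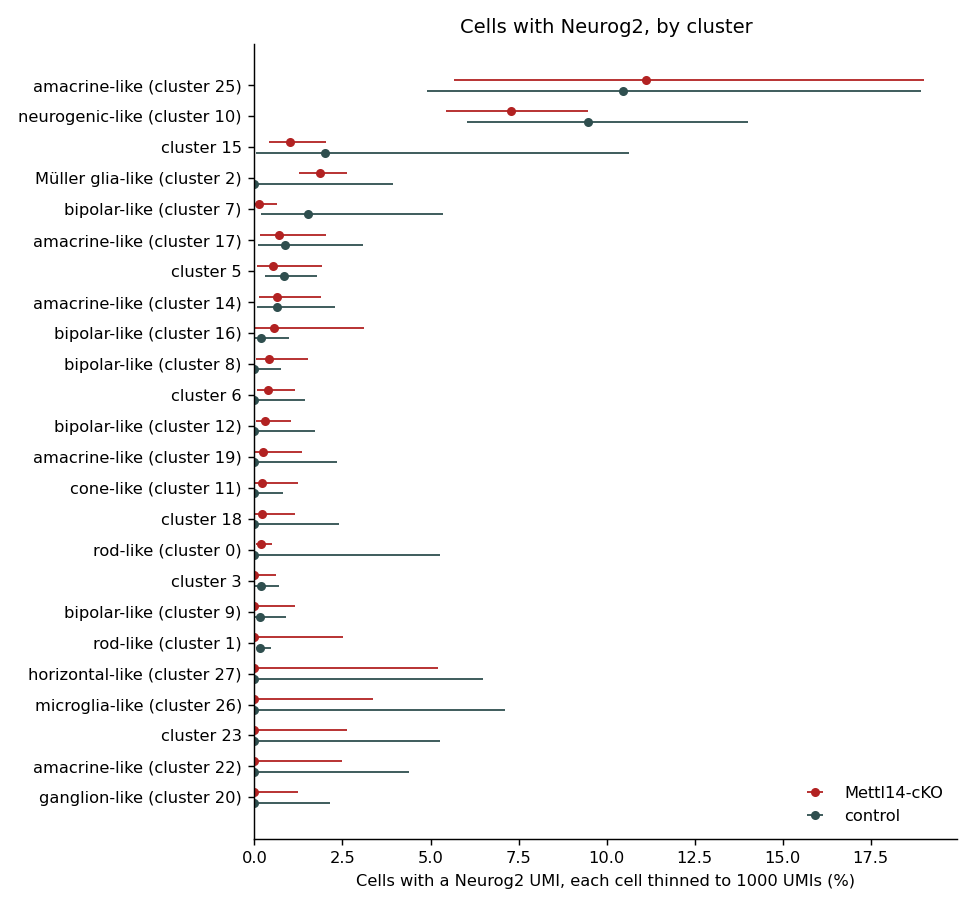
Share of cells with a Neurog2 UMI after each cell was thinned to 1000 UMIs, for the clusters with at least 50 cells in each library, Mettl14-cKO (red, upper) and control (dark, lower), with exact 95% binomial intervals. Cluster 25 of the amacrine-like cells (11.1% and 10.5%) and the neurogenic-like cluster (7.28% and 9.48%) have the highest shares shown, although the interval of cluster 15 in control, from 50 cells, overlaps theirs; cluster 13 is absent because it held 18 Mettl14-cKO cells.

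Of the 8 genes Olig2 had the largest share of its UMIs in 1 class, with 52.7% in neurogenic-like cells of Mettl14-cKO and 74.0% in those of control. Of the clustered cells with an Olig2 UMI, 49 of 90 in Mettl14-cKO and 26 of 38 in control were neurogenic-like. No Olig2 UMI was found in the 1600 Mettl14-cKO and 1069 control amacrine-like cells. In the proliferating progenitor-like cluster 22 UMIs were found in 213 Mettl14-cKO cells and 2 UMIs in 39 control cells. Otx2, a photoreceptor and bipolar lineage factor, was found in 95.8% of Olig2 cells in Mettl14-cKO and 92.9% in control. At least 2 of the 5 proliferation genes were found in 15.8% of Mettl14-cKO and 4.76% of control Olig2 cells. Cdkn1a was found in 22 of 95 Olig2 cells in Mettl14-cKO and in 0 of 42 in control, a count of 0 with an upper limit of 8.41%. Cells without Atoh7, given below, also held Cdkn1a more often in Mettl14-cKO, and their control share lies under that limit. The Cdkn1a difference is thus not read as a trait of Olig2 cells. Shares in cells without Olig2 are not given here, and the 5 proliferation genes were all higher over the Mettl14-cKO library.

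Atoh7 was higher in several classes at once. In cone-like cells it had 54 UMIs (9.35 CPM) in Mettl14-cKO against 25 UMIs (3.78 CPM) in control, a ratio of 2.47 (1.51 to 4.14). In bipolar-like cells it had 39 UMIs (4.31 CPM) against 10 UMIs (1.09 CPM), a ratio of 3.94 (1.93 to 8.85), and in cluster 6, an unnamed cluster led by Insm2 and Fabp7, it had 33 UMIs (18.2 CPM) against 1 UMI (2.04 CPM). Microglia-like cells, which should lack the gene, held 2 UMIs in Mettl14-cKO (2.88 CPM, 0.349 to 10.4) and 0 UMIs in control. That wide interval includes the cone-like and bipolar-like levels of Mettl14-cKO. Amacrine-like (11 of 5812168 UMIs) and rod-like cells (20 of 9003947) of Mettl14-cKO had lower levels than cone-like cells (54 of 5776390). Neurogenic-like cells, cluster 6, proliferating progenitor-like cells (18 of 1106383) and cluster 5 (12 of 1215759) had higher levels. So did Müller glia-like cells, through 1 cell described below. What part of the cone-like and bipolar-like levels is free RNA was not tested. The interval in Mettl14-cKO neurogenic-like cells, 29.6 to 44.9 CPM, and that in cluster 6, 12.6 to 25.6 CPM, lie above the microglia-like interval. Of the cells with Atoh7, 84.1% in Mettl14-cKO and 94.4% in control held 1 UMI. Of the 7 classes with enough UMIs, 6 were past 1.5-fold higher, and in rod-like cells the interval of the ratio (0.995 to 4.43) included 1.

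A pair of cells carried many of the Atoh7 UMIs of Mettl14-cKO. The cell with the most held 49 Atoh7 UMIs of its 9443 and was Müller glia-like, where it made 49 of the class's 55 UMIs. Without its top cell in each library the Müller glia-like class had 6 UMIs in Mettl14-cKO and 2 UMIs in control. The next cell held 24 Atoh7 UMIs and was neurogenic-like, and without its top cell in each library that class had 69 UMIs in Mettl14-cKO against 5 UMIs in control, a ratio of 4.42 (1.81 to 14.0). Cluster 6 treated likewise had 28 UMIs against 0 UMIs. Over all barcodes, leaving out the top cell of each library gave 366 against 93 UMIs, a ratio of 3.67 (2.91 to 4.66). In control the top Atoh7 cell held 3 UMIs.

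Atoh7 cells held some transcripts at other shares in Mettl14-cKO than in control. Neurod4 was found in 72.3% of the 271 Mettl14-cKO and 44.4% of the 90 control cells with Atoh7 at full depth, and in 30 of 70 and 4 of 16 after thinning. Gadd45g was found in 48.7% and 20.0% at full depth. Over all barcodes both genes were also found more often in Mettl14-cKO. Neurod4 was in 5616 of 13502 Mettl14-cKO and 4032 of 11426 control cells, and Gadd45g in 2824 and 1536 of them. The photoreceptor gene Crx was found in 64.9% of Mettl14-cKO and 75.6% of control Atoh7 cells, and the ganglion cell gene Pou4f2 in 2.58% and 4.44%. Over all barcodes Crx was also lower in Mettl14-cKO, at 261 against 404 CPM, and Pou4f2 stood at 3.55 against 2.88 CPM. Shares of these 2 genes in cells without Atoh7 are not given here. Cdkn1a was found in 36.5% and 10.0% of Atoh7 cells, against 21.9% and 5.74% of cells without Atoh7.

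Neurod4, a factor of young neurons, had its highest levels in neurogenic-like cells and cluster 6, and 8 of 15 classes were past 1.5-fold higher and 0 lower. Of these 8, cluster 5 alone had a control level above the microglia-like level given below. The others included cluster 18, with 75 UMIs in Mettl14-cKO against 14 in control, and cluster 23, with 57 against 6. Cluster 3, an unnamed cluster of 599 Mettl14-cKO and 1032 control cells led by Gngt2, went the other way and fell just short of the limit, at 179 CPM (153 to 207) in Mettl14-cKO against 268 CPM (247 to 291) in control, a ratio of 0.667 (0.560 to 0.790). In cluster 6 it stood at 1463 CPM in Mettl14-cKO and 1450 CPM in control, in bipolar-like cells at 849 and 723 CPM, and in cluster 5, led by the amacrine genes Prdm13 and Nhlh2, at 858 and 514 CPM, a ratio of 1.67 (1.54 to 1.81). In cone-like cells it was 146 CPM (136 to 156) in Mettl14-cKO against 37.8 CPM (33.3 to 42.8) in control, a ratio of 3.85, and in rod-like cells 124 against 49.1 CPM, a ratio of 2.53. Microglia-like cells, which should lack the gene, held 72.0 CPM (53.4 to 94.9) in Mettl14-cKO and 89.3 CPM (56.0 to 135) in control. The cone-like and rod-like levels were above the microglia-like interval in Mettl14-cKO and below it in control. The part of free RNA in these levels was not tested. Ganglion-like cells were lower still, at 22.2 and 12.1 CPM. The levels of Müller glia-like, amacrine-like, horizontal-like and ganglion-like cells were at or below the microglia-like level in both libraries.

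Gadd45g differed most in photoreceptors, where its level was low. Its level was highest in neurogenic-like cells (901 CPM in Mettl14-cKO, 1037 CPM in control), followed by cluster 6 at 197 against 87.7 CPM, a ratio of 2.25 (1.64 to 3.17), and cluster 15 at 156 against 146 CPM. Of these 2 clusters, cluster 6 had the higher level in Mettl14-cKO, whereas in control cluster 15 (109 to 191 CPM) had the higher value and its interval overlapped that of cluster 6 (63.5 to 118 CPM). In cone-like cells it was 40.9 CPM (35.8 to 46.4) in Mettl14-cKO and 9.99 CPM (7.72 to 12.7) in control, a ratio of 4.09 (3.10 to 5.46). In rod-like cells it was 29.5 against 12.9 CPM, a ratio of 2.30 (1.89 to 2.80), and in bipolar-like cells 106 against 64.2 CPM, a ratio of 1.65. Microglia-like cells held 64.8 CPM (47.2 to 86.7) in Mettl14-cKO and 36.5 CPM (16.7 to 69.3) in control, above the rod-like and cone-like levels. Horizontal-like cells held 11.8 CPM (5.42 to 22.5) in Mettl14-cKO and 14.3 CPM (8.15 to 23.1) in control, below the photoreceptor levels of Mettl14-cKO and close to those of control. What part of the photoreceptor values is free RNA was not tested. Cluster 18, led by Vip and Cbln4, was the class where Gadd45g was lower, at 40.0 against 74.8 CPM, a ratio of 0.535 (0.373 to 0.771).

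Gadd45a was past 1.5-fold lower in 3 of 12 measured classes and higher in 1. Its highest level was in rod-like cells, at 58.5 CPM (53.6 to 63.7) in Mettl14-cKO against 82.8 CPM (78.0 to 87.9) in control, a ratio of 0.707. It was 39.8 against 63.6 CPM in cone-like cells, 17.5 against 30.1 CPM in amacrine-like cells and 21.5 against 38.0 CPM in cluster 18, and these 3 were past 1.5-fold. In bipolar-like cells it was 20.2 against 29.4 CPM. Microglia-like cells held 5.76 and 8.12 CPM, below all of these. In Müller glia-like cells the order was the reverse, with 131 UMIs (22.9 CPM) in Mettl14-cKO and 52 UMIs (13.8 CPM) in control, a ratio of 1.67 (1.20 to 2.34); this ended when the glia were gated or clustered more finely, as given below. Gadd45a is a p53 target. Of the 17 p53 targets of the list measured over all barcodes, 6 were higher and 2 lower, against 13.9% and 11.6% of all genes. Cdkn1a stood at 118 against 27.3 CPM and Phlda3 at 24.1 against 7.85 CPM.

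Btg1 and Btg2, the antiproliferative pair, stayed within 1.5-fold over all barcodes and in most classes, with 1 of 15 classes past it for Btg1 and 3 of 15 for Btg2. Btg1 stood between 37.9 CPM in ganglion-like cells and 316 CPM in cluster 6 of Mettl14-cKO, and between 29.4 and 337 CPM in control. It passed 1.5-fold in bipolar-like cells alone, at 195 against 127 CPM, a ratio of 1.53 (1.42 to 1.65), and was within 1.5-fold in the other 14 classes. Btg2 was highest in neurogenic-like cells (800 CPM in Mettl14-cKO, 1138 CPM in control) and cluster 6 (652 and 1032 CPM, a ratio of 0.632). In cluster 5 it was 162 against 101 CPM, and in horizontal-like cells 33 UMIs (43.4 CPM) against 13 UMIs (11.6 CPM). Among the 16 immediate early genes over all barcodes 1 was higher and 4 were lower, against 13.9% and 11.6% of all genes. Nr4a1 stood at 2.05 against 3.91 CPM.

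Over all barcodes the lists of related genes set the 8 in context, beside the 13.9% of all genes that were higher and 11.6% that were lower. Of 18 neurogenic state genes 10 were higher and 0 lower, with a median log2 ratio of 0.67, led by Mfng at 28.6 against 14.3 CPM. Of 10 other bHLH factors 4 were higher and 2 lower, from Hes6 at 283 against 158 CPM to Bhlhe23, a bipolar factor, at 5.88 against 30.3 CPM. Of 15 other exit genes 2 were higher (Cdkn1a, and Cdkn2d at 123 against 73.6 CPM) and 1 was lower (Tob2, at 88.3 against 139 CPM). Of 15 fate genes 2 were higher and 7 lower, with Isl1 at 160 against 340 CPM. The median log2 ratio over all 16164 genes was -0.02, and that of the 8 genes was 0.75.

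Counts of the 8 genes by class are set beside the shares of all measured genes that were higher and lower there. These counts rest on the ratio alone. They include Neurog2 in bipolar-like cells and clusters 5 and 15, Atoh7 in rod-like cells, and Gadd45g in microglia-like cells and cluster 23. The intervals of all of these included 1. They also include Neurod4 in rod-like, cone-like, Müller glia-like, horizontal-like and ganglion-like cells and in clusters 18 and 23. Its control level there was below the microglia-like level. The counts are therefore not read as an enrichment of the 8 genes. In bipolar-like cells 4 of 7 measured genes were higher and 0 lower, against 13.2% and 13.3% of all genes. In rod-like cells 3 of 6 were higher and 0 lower (13.9% and 11.7%), and in cone-like cells 3 of 6 were higher and 1 lower (12.5% and 11%). In Müller glia-like cells 3 of 7 were higher and 0 lower (17.4% and 10.7%), and Atoh7, 1 of the 3, rested on 1 cell. In cluster 5 it was 3 and 0 of 6 (11.1% and 12.5%), in cluster 6 it was 2 and 1 of 6 (16% and 12.8%), and in cluster 18 it was 1 and 2 of 5 (19.6% and 8.74%). Amacrine-like cells had 0 higher and 1 lower of 6 (11.3% and 6.79%), cluster 3 had 0 and 0 of 5 (11.4% and 13.6%), and cluster 15 had 1 and 0 of 7 (18.3% and 17.4%). The small classes were measured for few of the genes. Horizontal-like cells had 2 higher and 0 lower of 3 (11% and 8.46%), cluster 23 had 2 and 0 of 4 (11.2% and 6.27%), ganglion-like cells had 1 and 0 of 5 (8.27% and 6.05%), and microglia-like cells had 1 and 0 of 4 (10.3% and 15%).

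For most pairs of these genes, cells with the first held the second more often than cells without the first did. In 18 of 28 pairs the share with the second gene was higher in cells with the first than in cells without it in both libraries after thinning. Gadd45g was found in 32.9% of thinned Neurog2 cells in Mettl14-cKO and 41.6% in control, against 8.06% and 4.44% of cells without Neurog2. In Olig2 cells it was found in 11 of 27 in Mettl14-cKO and 10 of 14 in control. Btg2 was found in 74.1% and 64.3% of thinned Olig2 cells, against 24.6% and 24.7% of the others. Neurod4 did not follow Neurog2, with 22.1% and 15.6% of Neurog2 cells against 24.1% and 18.6% of the others. Gadd45g was found in 3.51% of Gadd45a cells of control, against 4.75% of the others, and in 9.07% against 8.29% in Mettl14-cKO. Cells of 1 class share many genes, so these shares describe the libraries and carry no test.

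At full depth Neurog2 and Olig2 were found together in 36 Mettl14-cKO and 18 control cells, which is 37.9% and 42.9% of Olig2 cells. Neurog2 and Atoh7 were found together in 16 Mettl14-cKO cells and 1 control cell, or 5.90% and 1.11% of Atoh7 cells, while cells without Atoh7 held Neurog2 in 3.00% and 2.11%. Olig2 and Atoh7 met in 4 cells and 1 cell. All 3 were found in 2 Mettl14-cKO cells and in 0 control cells.

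**Figure D5:**
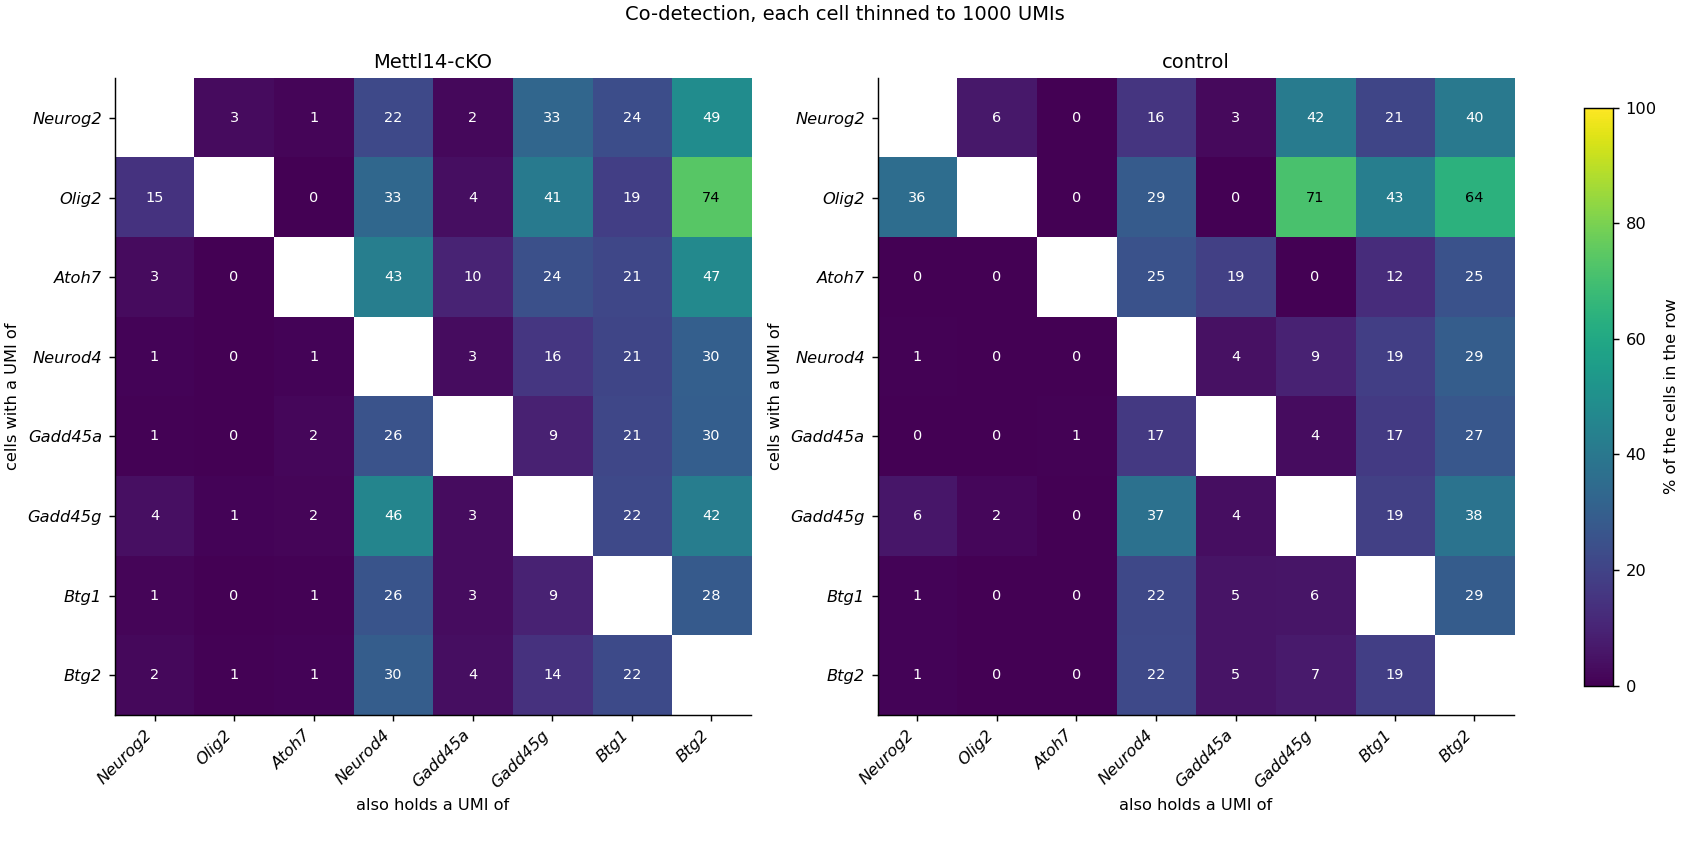
Share of the cells with a UMI of the row gene that also held a UMI of the column gene, in percent, after each cell was thinned to 1000 UMIs, for Mettl14-cKO (left) and control (right). The Gadd45g and Btg2 columns are bright in the Neurog2 and Olig2 rows of both libraries; the Olig2 row rests on 27 and 14 cells and the Atoh7 row on 70 and 16.

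In cells gated as Müller glia by at least 1 UMI each of Rlbp1, the visual cycle retinaldehyde-binding protein, and Slc1a3, the glial glutamate transporter, Neurod4 was higher and no measured gene of the 8 was past 1.5-fold lower. The gate held 1509 Mettl14-cKO cells (11.2%) and 1217 control cells (10.7%), of which 81.4% and 82.7% of those clustered were Müller glia-like. Rlbp1 itself was lower over all barcodes (89.1 against 137 CPM), and 64.9% of Müller glia-like cells passed the gate in Mettl14-cKO against 83.9% in control. Of the 6 genes with at least 30 UMIs in the gate, 1 was higher and 0 lower, against 12.9% and 10.5% of 12471 genes. That gene was Neurod4, at 158 against 85.4 CPM, a ratio of 1.85 (1.66 to 2.05), with microglia-like cells at 72.0 and 89.3 CPM. Of its 1086 Mettl14-cKO and 533 control UMIs in the gate, 251 and 85 were in cells that were also Müller glia-like by cluster. There it stood at 64.9 CPM in Mettl14-cKO and 25.2 CPM in control, a ratio of 2.58 (2.01 to 3.34), below the microglia-like level in both libraries. Most of the gated Neurod4 UMIs lay outside these cells, so the gated difference is not one of Müller glia alone. How many of them lay in gated cells called doublets is not given here. The part of free RNA in it was not tested. Neurog2 had 99 UMIs (14.4 CPM) in Mettl14-cKO against 124 UMIs (19.9 CPM) in control, a ratio of 0.724 (0.550 to 0.951). Gadd45a had 142 UMIs against 140 UMIs, a ratio of 0.920 (0.723 to 1.17), Gadd45g a ratio of 1.22, Btg1 1.18 and Btg2 1.01. Olig2 had 11 UMIs against 14 UMIs and Atoh7 17 against 6 UMIs.

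A stricter gate of at least 2 UMIs each kept 839 Mettl14-cKO and 878 control cells. Neurog2 then had 12.6 against 20.9 CPM, a ratio of 0.600 (0.413 to 0.861), and was past 1.5-fold lower, whereas by cluster alone its ratio in Müller glia-like cells was 0.999 (0.764 to 1.31). Gadd45g had a ratio of 0.832 under the stricter gate against 1.22 under the first, and Neurod4 1.44 against 1.85. For Gadd45a the ratio was 1.67 by cluster, 0.920 by the gate and 1.33 (0.888 to 2.01) in cells that met both. Of 6 measured genes, cells that met both had Neurod4 higher and Neurog2 lower, the second at a ratio of 0.628 (0.448 to 0.875), against 16.7% and 10.3% of all genes. When each library was clustered alone, Müller glia-like cells were 70 Mettl14-cKO cells against 1068 control cells, because the Mettl14-cKO cluster of 1620 cells with 9 of the glial markers stayed unnamed. Of 7 measured genes, 5 were then higher and 1 lower, against 21% and 22.5% of all genes, and the 2 sets of cells are not alike. The gate genes differ between the libraries, so gated cells of Mettl14-cKO and control cannot be taken as the same population.

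Across clusters of at least 50 cells, each in each library (53 points, 12962 genes), the genes whose log2 levels most resembled those of Neurog2 included Sapcd1 (Pearson's r = 0.74) and Efnb1. For Olig2 they were Mybl1 (0.80), Zc3h12c and Gadd45g (0.70), and for Atoh7 Luzp1 (0.72), Rrs1 and Mrps12. For Neurod4 they were Rcor2 (0.90), Lhx4 and Gabrr3, for Gadd45a Rsrc2 (0.81), Nbr1 and Cul5, and for Gadd45g Cdk4 (0.84), Rgs16 and 3010003L21Rik. For Btg1 they were 4632427E13Rik (0.84), Kdm5a and Son, and for Btg2 Dleu2 (0.90), Vps37b and Ctnna1. The points share libraries and depth, and the values describe likeness over clusters only.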

How the data were processed

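UMI counts per gene and barcode were used as deposited by the authors, who made them with Cell Ranger 6.1.1 on mm10, per the submitters' processing notes; the values are whole numbers. The 3' v3.1 kit is named in the labels. Levels are UMIs summed per library or class and scaled to the total, with exact Poisson, conditional and Clopper-Pearson 95% intervals; ratios needed 30 UMIs over both libraries. With 1 library per genotype there was no test, and the spread between animals is not measured. Clustering used cells with at least 500 genes, 1000 UMIs and at most 15% mitochondrial UMIs. Scrublet (expected rate 0.8% per 1000 barcodes) removed 572 Mettl14-cKO (4.24%) and 781 control (6.87%) doublets; the remaining cells were clustered jointly without batch correction (scanpy 1.11.5, leidenalg 0.10.2, 2000 variable genes, 30 components, 20 neighbours, resolution 1). Doublets were kept in values over all barcodes, shares, co-detection and the gate. A cluster was named "X-like" from at least 3 of the markers of 14 types (at least 2-fold higher than in other cells, in at least 10% of cells). Names are rebuilt and may differ from those of the study. The scripts were tested on simulated data. The 8 genes, the gene lists and the markers were chosen with earlier results of these data known. Named genes were the 8 genes, the 2 highest and 2 lowest of each list with at least 100 UMIs (of which the text gives a part), the 3 most alike genes of each and Mettl14; genes in the paragraphs on co-detection partners were chosen after their values were seen. Some genes that these rules name are not reported here. Gene positions are GENCODE M21, and promoter sequences are RefSeq GRCm38.p6. Alternatives were other minima of UMIs, scalings, folds, clusterings, thinning depths and gates.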

Additional observations from a re-analysis of the deposited data

Results flagged for a closer look

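Some genes went opposite ways in different classes, each past 1.5-fold with an interval that left out 1. With 1 library per genotype the difference between classes was not tested. Gadd45a had a log2 ratio, Mettl14-cKO over control, of 0.74 in Müller glia-like cells, but -0.82 in cluster 18, -0.78 in amacrine-like cells and -0.67 in cone-like cells. The Müller glia-like value turned to -0.14 at Leiden resolution 2 and to a ratio of 0.920 in gated cells, and these cells lie in different clusters in each library. Gadd45g had log2 ratios of 2.03 in cone-like, 1.20 in rod-like, 1.17 in cluster 6 and 0.72 in bipolar-like cells, but -0.90 in cluster 18. Btg2 had 1.91 in horizontal-like cells and 0.68 in cluster 5, but -0.66 in cluster 6.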

How the results depend on the processing

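Under the alternatives 302 values were labelled the same, 60 moved and 2 reversed. A ratio was the same if it stayed within the counting interval of the main value, and a count if it stayed within 1.5-fold. Only ratios past 1.5-fold in the main setting could be labelled reversed. Other changes of direction, such as that of Gadd45g under the stricter gate, are thus among the same or moved values. Control class shares gave log2 ratios of 0.16 for Neurog2, -0.18 for Olig2 (reversed), 0.44 for Neurod4, -0.42 for Gadd45a and 0.50 for Gadd45g, with 1 gene past 1.5-fold higher and 0 lower. A minimum of 2000 UMIs gave Btg2 a log2 ratio of 0.092 and 0 genes lower; the gene lost under both settings was Gadd45a. Gadd45a in Müller glia-like cells turned to -0.14 at Leiden resolution 2. Past 2-fold were 2 of the 8 genes, 1 other bHLH factor, 0 neurogenic state genes, 1 other exit gene and 5 p53 targets. Also past it were 0 immediate early genes, 3 fate genes and 0 gate genes. Past the lowest fold tried were 7 other exit and 8 immediate early genes. The share of all genes is not given at these folds, with control class shares or at a minimum of 2000 UMIs. These counts therefore show only how the calls depend on the setting. Each library clustered alone had 6 of 7 past 1.5-fold in Müller glia-like cells (3 in joint clusters), 70 cells in Mettl14-cKO. Of all genes, 21% were higher and 22.5% lower there, and 17.4% and 10.7% in joint clusters. Share ratios were 1.22 (2500 UMIs) and 1.18 (not thinned) for Neurod4, 0.74 (2500 UMIs) for Gadd45a, 1.56 (not thinned) for Gadd45g and 1.11 (not thinned) for Btg1. Of the 6 genes measured in the gate, the Müller glia-like clusters gave 2 higher (Neurod4 and Gadd45a), against 17.4% of all genes. The cells that were both gated and Müller glia-like gave 2 past 1.5-fold (Neurod4 higher, Neurog2 lower), against 16.7% higher and 10.3% lower of all genes. This last setting, the leaving out of top Atoh7 cells and a minimum of 2000 UMIs in neurogenic-like cells were chosen after seeing the data. No paired analysis was possible because each genotype has 1 library. Animals, dissociation and libraries cannot be told apart from genotype, and free RNA limits low levels.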
